A study of Mus musculus with 36 samples.

Results

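The genes described here are 7 chemokines and a macrophage growth factor: Ccl2, Ccl7, Ccl8, Ccl11, Ccl5, Ccl20, Cx3cl1 and Csf1. They were chosen by name, as the rows of the count table whose symbol equals one of these 8, out of 39017 rows in all. The rule itself uses no measured value, but the members were chosen with earlier results of these data known. Of the 8, 6 passed the filter on low counts and were tested among 14439 genes, whereas Ccl8 and Ccl20 did not pass and are given by their counts. RNA was sequenced from C57BL/6 mouse pancreatic fibroblasts in 9 groups of 4 libraries. In the mono-culture group the fibroblasts were grown without tumor cells. In the other 8 groups they shared a dish for 48 h with a GFP-expressing tumor line, namely clone E, H, K, M, N, T or V or the line KPC1, and were then sorted away from it by flow cytometry. The labels name no treatment beyond the tumor line, do not say how the clones or KPC1 were derived, and do not say whether the 4 replicates of a group were separate fibroblast preparations, so the p-values below measure the spread between these libraries only.

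Chemokines are small secreted proteins that direct the migration of leukocytes along a concentration gradient through G protein-coupled receptors. Ccl2 and Ccl7 recruit monocytes, largely through Ccr2, and Ccl7 also binds other receptors, as Ccl8 does. Ccl11 (eotaxin) recruits eosinophils through Ccr3, Ccl5 (RANTES) acts on T cells, monocytes and eosinophils through receptors that include Ccr1 and Ccr3, and Ccl20 acts on Ccr6-bearing lymphocytes and dendritic cells. Cx3cl1 (fractalkine) is made as a membrane-anchored protein that captures Cx3cr1-bearing leukocytes and is released by the sheddases Adam10 and Adam17. Csf1 is a ligand of Csf1r and supports the survival and growth of macrophages, and fibroblasts are a known source of it. In pancreatic tumors these ligands are studied as signals from the stroma to myeloid cells.

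Members did not move as a block. Ccl2 and Ccl7 fell with clones K and M, and Ccl7 rose with clone H and with KPC1. Ccl11 rose from a handful of counts in co-culture with KPC1 and with clones M, E, T and N. Ccl5 fell in 5 co-cultures, those with K, M, E, T and N. Cx3cl1 rose with clones E, K, N and T and fell with clone V. Csf1 was high in all 9 groups and differed least.

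Library totals ranged from 12532122 to 21985538 counts, so 3 counts, taken as the detection floor, stood for 0.131 to 0.228 CPM (counts scaled to a common library total). Fibroblast markers were present in all 36 libraries, where the 8 of them summed to between 9283 and 24362 CPM, mostly from Col1a1, Col1a2 and Vim. Single markers nonetheless differed between groups. All 8 were called against mono-culture with KPC1 (beside 59% of all genes) and with clone T (beside 49.8%), 5 lower and 3 higher each. With clone H 6 were called (4 lower, beside 54.2% of all genes) and with clone V 5 (4 lower, beside 58.3%). Clones E, K, M and N had 1 to 3 called, none of them lower, beside 32%, 19.1%, 23% and 39% of all genes. With KPC1 the matrix proteoglycan Lum was at 2 to 9 counts a library and differed by -4.29 (SE 0.60). Dcn differed by -2.20 (SE 0.39) and the receptor Pdgfra by -1.54 (SE 0.22, edgeR adjusted p of 2.3e-05 or less for the 3 genes). Without KPC1 replicate 1, 7 of the 8 markers were called, beside 54% of all genes. The 8 epithelial markers summed to 0.989 to 1.71 CPM in mono-culture and to 18.3 to 797 CPM in the co-cultures. That sum came from Krt8, Krt18, Krt19 and Cdh1, while Epcam, Cldn4 and Cldn7 had at most 9 counts in any library. Of 8 leukocyte markers the defining ones Ptprc, Adgre1, Itgam and Tyrobp had at most 3 counts in any library and Fcer1g at most 9. The other 3, which are not restricted to leukocytes, were tested. Cd68 had up to 306 counts and was called higher in 4 of 8 co-cultures, Cd14 had up to 369 counts and was higher in 2, and Lyz2 had up to 82 counts and was lower in 7. The part of these marker differences in the values below was not tested. These are bulk libraries of sorted cells, in which fewer cells expressing a gene and less RNA per cell cannot be told apart.

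Positions were taken from GENCODE by Ensembl identifier on mouse build GRCm38, the assembly called mm10 in the submitters' processing notes. Ccl2 (chr11:82035571-82037453), Ccl7 (chr11:82045712-82047525), Ccl11 (chr11:82057823-82062955) and Ccl8 (chr11:82115185-82116799) lie on the plus strand in a run of 81229 bases that holds 5 protein-coding genes, the other being Ccl12. Ccl5 (chr11:83525778-83530518) lies on the minus strand of the same chromosome. Ccl20 (chr1:83116766-83119167) and Cx3cl1 (chr8:94772009-94782427) lie on plus strands and Csf1 (chr3:107741048-107760469) on a minus strand. No 76-base word of any member's annotated transcripts occurred in a transcript of another gene, so reads of the sequenced length distinguish these paralogs. Ccl2 overlaps 1 annotated gene on the opposite strand, Gm17268. Whether counting used strand is not given in the sources used here, so reads of this pair cannot be told apart if it did not.

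RefSeq promoter sequence on GRCm38.p6 was held for 4 of the 8 members, and 3 are shown because they set the member with the highest median level, Csf1, beside Ccl20 and Ccl8, the pair that was close to undetected. Each is the 250 bases before the RefSeq start on the gene's own strand, at chr3:107760470-107760719 (minus), chr1:83116516-83116765 (plus) and chr11:82114935-82115184 (plus), and capitals mark matches on either strand to the motifs searched.
Csf1: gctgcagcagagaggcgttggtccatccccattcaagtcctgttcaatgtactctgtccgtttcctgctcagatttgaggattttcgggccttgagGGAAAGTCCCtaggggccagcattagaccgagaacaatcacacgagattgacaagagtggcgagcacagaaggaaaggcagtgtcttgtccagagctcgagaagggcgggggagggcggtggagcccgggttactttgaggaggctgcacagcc
Ccl20: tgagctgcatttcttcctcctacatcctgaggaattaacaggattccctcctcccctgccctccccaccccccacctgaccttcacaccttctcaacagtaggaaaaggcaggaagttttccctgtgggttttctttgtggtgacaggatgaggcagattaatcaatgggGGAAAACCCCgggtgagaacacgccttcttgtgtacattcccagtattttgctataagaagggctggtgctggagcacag
Ccl8: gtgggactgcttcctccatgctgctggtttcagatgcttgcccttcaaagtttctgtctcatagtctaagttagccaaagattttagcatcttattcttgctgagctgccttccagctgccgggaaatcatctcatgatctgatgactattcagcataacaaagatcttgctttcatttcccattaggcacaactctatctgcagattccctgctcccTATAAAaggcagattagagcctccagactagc
The motifs were the NF-kappaB consensus, the AP-1 site TGANTCA, the TATA box TATAAA and the interferon response element GAAANNGAAA. Csf1 had an NF-kappaB match at -154 to -145 and Ccl20 had an NF-kappaB match at -80 to -71, counted from the RefSeq start, and such matches occurred in 7.25% of 32851 promoter windows of this length. Ccl8 had a TATA box at -32 to -27, as did 12.37% of windows at any position. AP-1 letters occurred in 6.75% and the interferon element in 2.98% of windows, and in none of the 3 shown. The fourth window, that of Cx3cl1, overlaps the annotated gene and is not described. Promoters with a match to the NF-kappaB letters therefore stood both at the member with the highest level and at one near the floor.

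Levels were compared between genes as RPKM, which scales counts for gene length. Csf1 was the highest by its median over libraries, with group means of 70.8 to 130 RPKM, and Ccl2 spanned 25.8 to 222 RPKM. Ccl7 group means lay between 7.22 and 53.2 RPKM, Ccl5 between 12.95 and 39.2 RPKM and Cx3cl1 between 7.54 and 26.03 RPKM. Ccl11 ran from 0.106 RPKM with clone V to 8.09 RPKM with clone E, a range that reached from the level of the undetected members to that of the lowest Ccl7 groups. Group means of Ccl20 and Ccl8 did not exceed 0.546 and 0.255 RPKM.

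**Figure D1:**
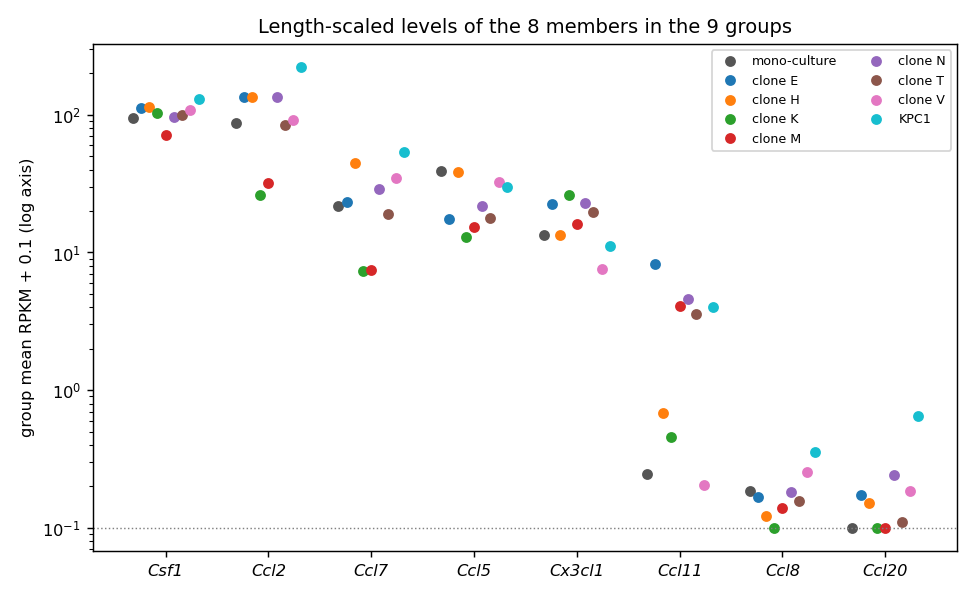
Mean RPKM of each member in each of the 9 groups, with 0.1 added so that means of 0 can be drawn (dotted line), on a log axis; each point is the mean of 4 libraries. Csf1 and Ccl2 stand highest except with clone K, where Cx3cl1 (26.03 RPKM) lies beside Ccl2 (25.8 RPKM), Ccl8 and Ccl20 lie near the dotted line, and Ccl11 spreads from 0.106 to 8.09 RPKM.

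The question for each member was whether its transcript differed between fibroblasts kept with a given tumor line and fibroblasts kept alone, and whether it differed between lines. Values below are CPM scaled by TMM, and a change is a log2 fold change from edgeR's quasi-likelihood fit to the 36 libraries, given with its SE and Benjamini-Hochberg adjusted p over 14439 genes.

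**Figure D2:**
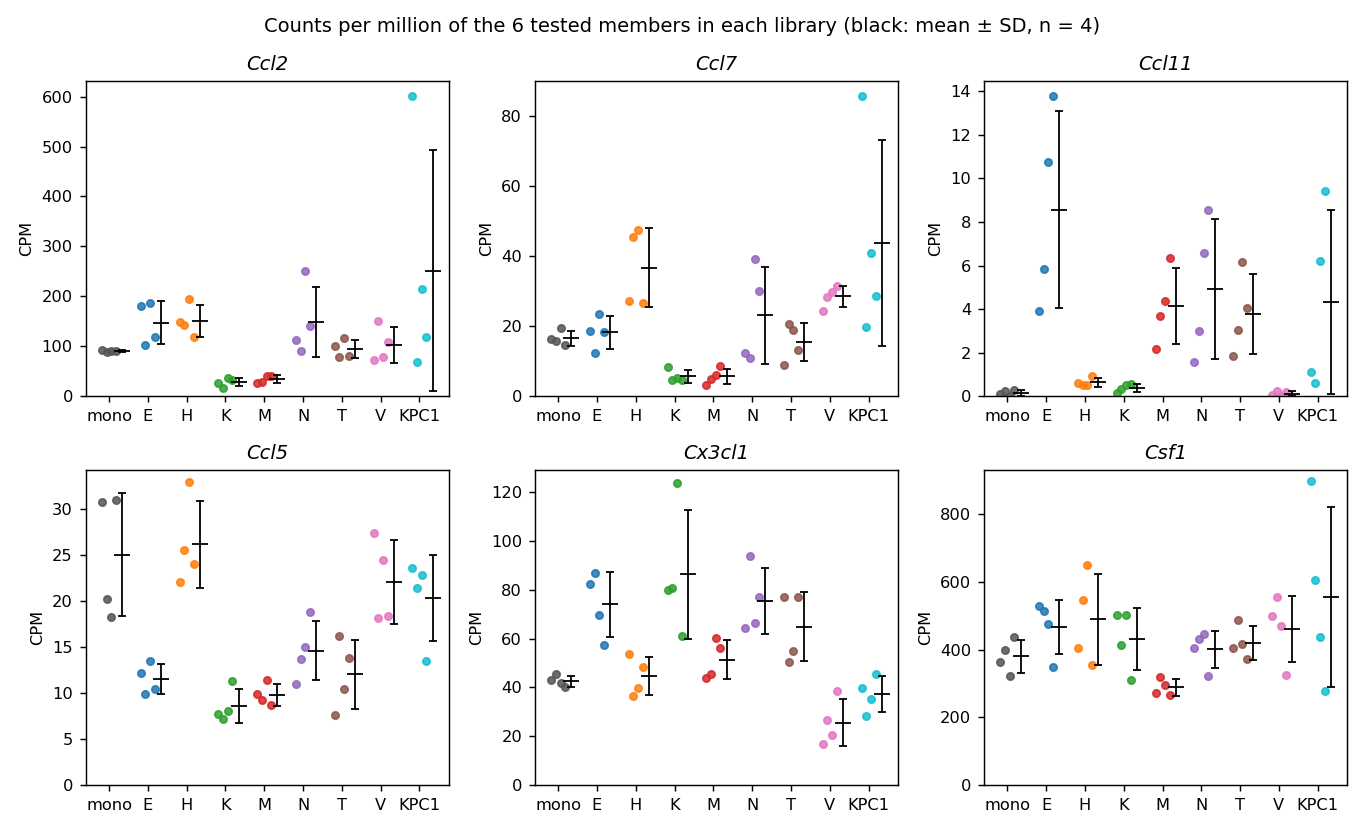
CPM of the 6 tested members in every library on linear axes from 0, in the mono-culture (mono), the 7 clonal co-cultures (letters) and KPC1; colored points are libraries and black bars the mean ± SD of 4. KPC1 replicate 1 stands alone at 602 CPM for Ccl2 and 900 CPM for Csf1, and Ccl11 is close to 0 in mono-culture and with clone V.

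Ccl2 (ENSMUSG00000035385), a monocyte attractant, was very even in mono-culture, where the 4 libraries had 92.2, 88.7, 90.9 and 91.0 CPM. With clone K they had 26.6, 17.4, 35.9 and 32.4 CPM, and with clone M 26.1, 27.997, 41.1 and 40.5 CPM. Each of these 8 libraries lay below each mono-culture library. Ccl2 fell by 1.69 on the log2 scale with clone K (SE 0.42, edgeR adjusted p = 0.00433), a 3.22-fold decrease, and by 1.42 with clone M (SE 0.42, adjusted p = 0.0129). With clone E the libraries had 181, 103, 187 and 118 CPM, and with clone H 149, 143, 195 and 118 CPM. All of these exceeded the mono-culture libraries, yet the differences of 0.70 (SE 0.40, edgeR adjusted p = 0.194) and 0.74 (SE 0.40, adjusted p = 0.123) did not pass the threshold. In a fit to only the 8 libraries compared, both passed, with adjusted p of 0.0117 and 0.000432. Clone N (148.6 ± 71.1 CPM), clone V (102.5 ± 35.6 CPM) and clone T (93.9 ± 17.9 CPM, SD, n = 4 each) had libraries on both sides of mono-culture or overlapped it and did not pass.

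With KPC1 the Ccl2 values were 602, 67.9, 216 and 120 CPM, so replicate 1 was far above the other libraries and replicate 2 lay below all mono-culture libraries. The fit gave an increase of 1.47 (SE 0.41, edgeR adjusted p = 0.00277). Without KPC1 replicate 1 it was 0.56 (SE 0.32, adjusted p = 0.147), so the call rested on that library. Ordered by mean CPM, Ccl2 ran from KPC1 through clones H, N, E, V and T to mono-culture and then clones M and K. Among these neighbors only the pair of mono-culture and clone M passed the edgeR threshold. Of the 36 pairs of groups 17 differed, the most distant being KPC1 and clone K at 8.92-fold (edgeR adjusted p = 7.6e-07). Over all genes the share called in a pair ran from 0.388% (clones H and V) to 59% (mono-culture and KPC1). The number of pairs in which a typical gene differed was not counted, here or for the members below.

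Ccl7 (ENSMUSG00000035373), which lies next to Ccl2 and also attracts monocytes, had 16.2, 15.8, 19.5 and 14.6 CPM in mono-culture. The clone K libraries had 8.44, 4.68, 5.29 and 4.54 CPM and those of clone M 3.16, 4.80, 6.13 and 8.51 CPM, all below mono-culture. The log2 fold change was -1.52 for clone K (SE 0.40, edgeR adjusted p = 0.00726) and -1.56 for clone M (SE 0.41, adjusted p = 0.00561). With clone H the libraries had 27.2, 45.5, 47.4 and 26.8 CPM, each above mono-culture. Ccl7 rose there by 1.15 (SE 0.38, edgeR adjusted p = 0.0114), a 2.22-fold increase. Clone V libraries, at 24.5, 28.5, 29.9 and 31.4 CPM, also lay above mono-culture but the increase of 0.79 (SE 0.38) did not pass (edgeR adjusted p = 0.0748). It passed in the fit to only those 8 libraries (adjusted p = 0.000303).

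KPC1 libraries had 86.0, 19.8, 41.1 and 28.6 CPM of Ccl7, each above mono-culture, and the increase was 1.41 (SE 0.38, edgeR adjusted p = 0.00215). Without replicate 1 it was 0.84 (SE 0.36, adjusted p = 0.0465), a smaller change that still passed. Clone N libraries split into 12.3 and 10.9 CPM below mono-culture and 39.2 and 29.998 CPM above it. Clone E (18.2 ± 4.62 CPM) and clone T (15.4 ± 5.42 CPM, SD, n = 4 each) overlapped mono-culture. In order of mean level the groups were KPC1, clones H, V, N and E, mono-culture, and clones T, K and M, and the only neighbors that differed were clones T and K (edgeR adjusted p = 0.00564). Of the 36 pairs 20 differed.

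Ccl2 and Ccl7 were the 2 members whose levels followed each other most closely. Over the 36 libraries Pearson's r of their log2 CPM was 0.88 and Spearman's rho 0.79. After subtracting group means r was 0.73, and without KPC1 replicate 1 it was 0.86. The points share library and depth, and these are descriptions. Against the others, Ccl7 had r = 0.72 with Ccl5 and 0.51 with Csf1, and Ccl5 had r = -0.68 with Cx3cl1.

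**Figure D3:**
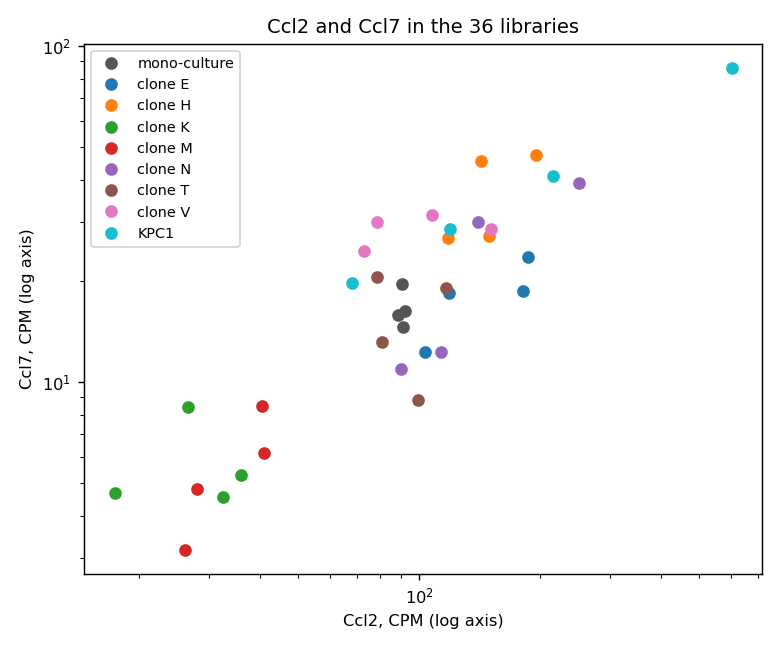
Ccl2 against Ccl7 in CPM, both on log axes, 1 point per library and 1 color per group, 36 in all. Clones K and M fill the low corner and KPC1 replicate 1 is the highest point on both axes (602 and 86.0 CPM).

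Ccl8 (ENSMUSG00000009185), another member in this chromosome 11 run, was close to undetected. It had 27 counts over the 36 libraries, 0 in 19 of them and at most 5 in any, and 35 libraries were at or under the floor. KPC1 had 9 counts in all and mono-culture 3, a ratio of 3.09 with a 95% counting interval of 0.771 to 17.7. In a fit without the filter on low counts Ccl8 differed between KPC1 and the mean of the 7 clones (edgeR adjusted p = 0.0131), a call that rests on those 9 counts, and no difference from mono-culture was detectable at this depth (adjusted p of 0.267 or more).

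Ccl11 (ENSMUSG00000020676), the eosinophil attractant, had 2, 4, 0 and 6 counts in the mono-culture libraries, or 0.151 ± 0.122 CPM. With clone E it had 82, 122, 175 and 216 counts, or 3.93, 5.85, 10.7 and 13.8 CPM. Clone M libraries had 35, 61, 76 and 85 counts, clone N libraries 32, 55, 98 and 151, and clone T libraries 33, 55, 113 and 73. In these 4 groups every library was above every mono-culture library. The log2 fold changes were 5.64 with clone E (SE 0.81, edgeR adjusted p = 4.3e-06), 4.59 with clone M (SE 0.82, adjusted p = 0.000104), 4.84 with clone N (SE 0.81, adjusted p = 2.1e-05) and 4.46 with clone T (SE 0.82, adjusted p = 4.2e-05). Their size rests on 12 mono-culture counts.

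With KPC1 the Ccl11 counts were 21, 10, 101 and 165, and the increase was 4.66 (SE 0.81, edgeR adjusted p = 1.5e-05). The other clones were lower. Clone H libraries had 10, 10, 10 and 21 counts, all above mono-culture in CPM, with an increase of 1.91 (SE 0.92) that did not pass (edgeR adjusted p = 0.0785). That increase passed with DESeq2 (adjusted p = 0.0196) and with the replicate number as a block (edgeR adjusted p = 0.0105). Replicate numbers did not pair co-cultures with mono-culture, which limits the blocked result. Clone K libraries had 3, 5, 10 and 12 counts (log2 fold change 1.19, SE 0.98, edgeR adjusted p = 0.440). Clone V libraries had 1, 5, 0 and 3 counts, a range that overlapped mono-culture (log2 fold change -0.45, SE 1.20, edgeR adjusted p = 0.774). In order of mean CPM the groups were clones E and N, KPC1, clones M, T, H and K, mono-culture and clone V, and the only neighbors that differed were clones T and H (edgeR adjusted p = 0.0167). Clone E exceeded clone V 67.9-fold (edgeR adjusted p = 2.4e-06), and 20 of 36 pairs differed. Over the 32 co-culture libraries log2 CPM of Ccl11 had a Pearson's r of 0.63 with the summed epithelial markers, and of 0.14 after subtracting the mean of each line, where both values come from 1 library. For the other tested members the same r was 0.45 overall and 0.41 within lines for Ccl2, 0.41 and 0.40 for Cx3cl1, 0.15 and 0.13 for Ccl7, -0.04 and 0.18 for Ccl5, and -0.11 and -0.19 for Csf1. The part of tumor-cell RNA in the values of any member was not tested.

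Ccl5 (ENSMUSG00000035042), an attractant of T cells and monocytes that is also known as an interferon-responsive gene, had 30.7, 20.2, 18.3 and 30.9 CPM in mono-culture. It had 7.73, 7.15, 8.04 and 11.2 CPM with clone K and 9.93, 9.23, 11.4 and 8.65 CPM with clone M. With clone E the values were 12.1, 9.92, 13.5 and 10.47 CPM and with clone T 7.58, 16.2, 10.4 and 13.8 CPM. These 16 libraries all lay below the lowest mono-culture library. With clone N the values were 10.98, 13.6, 14.97 and 18.8 CPM, the last of which overlapped mono-culture. Ccl5 changed by -1.55 with clone K (SE 0.22, edgeR adjusted p = 5.0e-06), -1.35 with clone M (SE 0.22, adjusted p = 2.7e-05), -1.13 with clone E (SE 0.22, adjusted p = 0.000171), -1.06 with clone T (SE 0.22, adjusted p = 0.000142) and -0.78 with clone N (SE 0.21, adjusted p = 0.00415).

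In the other 3 co-cultures Ccl5 overlapped mono-culture. Clone H had 26.1 ± 4.74 CPM, clone V 22.1 ± 4.57 CPM and KPC1 20.3 ± 4.66 CPM (SD, n = 4 each), with edgeR adjusted p of 0.830, 0.471 and 0.220. The order of levels was clone H, mono-culture, clone V, KPC1, then clones N, T, E, M and K. No neighbors in that order passed the threshold, while 20 of the 36 pairs did, up to 3.05-fold between clones H and K (edgeR adjusted p = 6.8e-07).

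Ccl20 (ENSMUSG00000026166), the Ccr6 ligand, had 99 counts over the 36 libraries and 0 in 19 of them. All libraries of mono-culture, clone K and clone M had 0 counts, which allows up to 0.228 CPM in a mono-culture library. KPC1 libraries had 46, 3, 7 and 3 counts, clone N libraries 6, 5, 1 and 3, and clone V libraries 1, 6, 3 and 0. Clones E and H had at most 4 counts in a library and clone T at most 1. Set against 3 counts over the whole mono-culture group, the 59 KPC1 counts stood 20.2-fold higher, and the 13 without replicate 1 stood 6.14-fold higher. These ratios take the KPC1 counts as exact. A floor of 3 counts in each library is 0.137 to 0.228 CPM in mono-culture. KPC1 replicates 2 and 4 (0.181 and 0.171 CPM) lay within that range, and replicate 3 had 0.431 CPM. Only 7 of the 36 libraries exceeded the floor, and Ccl20 did not enter the main test. In the fit without the filter it passed with KPC1 (edgeR adjusted p = 0.000238), clone N (adjusted p = 0.0264) and clone V (adjusted p = 0.0465).

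Cx3cl1 (ENSMUSG00000031778), the membrane-anchored chemokine, had 42.9, 45.3, 41.6 and 40.0 CPM in mono-culture. It was highest with clone K, at 79.8, 80.5, 124 and 61.1 CPM. Clone N libraries had 64.1, 94.0, 66.5 and 77.1 CPM, clone E libraries 82.2, 87.0, 69.7 and 57.4 CPM, and clone T libraries 76.9, 50.4, 54.8 and 77.2 CPM. Every library of these 4 groups lay above mono-culture. The increases were 1.02 with clone K (SE 0.21, edgeR adjusted p = 0.000783), 0.83 with clone N (SE 0.21, adjusted p = 0.00247), 0.80 with clone E (SE 0.21, adjusted p = 0.00412) and 0.61 with clone T (SE 0.21, adjusted p = 0.0174). The clone T increase did not pass without its replicate 1 (edgeR adjusted p = 0.0586) or without its replicate 4 (adjusted p = 0.0584).

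Clone V differed in the opposite direction, with 16.7, 26.8, 20.3 and 38.5 CPM of Cx3cl1, all below mono-culture, and a change of -0.73 (SE 0.22, edgeR adjusted p = 0.00440). Clone M (51.4 ± 7.95 CPM), clone H (44.5 ± 7.83 CPM) and KPC1 (37.2 ± 7.37 CPM, SD, n = 4 each) did not pass. The order was clones K, N, E, T, M and H, mono-culture, KPC1 and clone V. No neighbors passed the threshold, whereas 17 of the 36 pairs did, with clones K and V 3.38-fold apart (edgeR adjusted p = 1.1e-07). The adjustment was made within each pair of groups, so similar differences could pass in 1 pair and not in another. The transcripts of its sheddases moved little. Adam10 had 228 ± 12.4 CPM in mono-culture and was lower with clones H and V and with KPC1, by -0.39 (SE 0.10), -0.36 (SE 0.10) and -0.42 (SE 0.10) on the log2 scale (edgeR adjusted p = 0.00157, 0.00319 and 0.000645). Adam17 had 111 ± 5.78 CPM in mono-culture and did not pass with any line (edgeR adjusted p of 0.249 to 0.961).

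Csf1 (ENSMUSG00000014599), the macrophage growth factor, had 362, 398, 322 and 437 CPM in mono-culture. No clonal co-culture passed the test against that level (edgeR adjusted p of 0.184 to 0.822). The clone M libraries, at 270, 320, 297 and 264 CPM, all lay below mono-culture, with a change of -0.40 (SE 0.23, edgeR adjusted p = 0.225) that passed in the fit to only those 8 libraries (adjusted p = 0.0110). Group means of the other clones lay between 401 CPM for clone N and 489 CPM for clone H. With KPC1 the values were 900, 606, 438 and 279 CPM, spanning the whole mono-culture range, and the increase was 0.55 (SE 0.23, edgeR adjusted p = 0.0412). Without KPC1 replicate 1, the library that was also highest for Ccl2, Ccl7 and Ccl20, it was 0.20 (SE 0.21, adjusted p = 0.438). The call failed in 5 of the 8 fits that left out 1 KPC1 or mono-culture library.

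In order of mean CPM, Csf1 ran from KPC1 through clones H, E, V, K, T and N to mono-culture and clone M, and no neighbors differed. Of the 36 pairs 5 differed, namely KPC1 from mono-culture and clone M from each of clones E, H and V and KPC1. The widest, KPC1 against clone M, was 1.93-fold (edgeR adjusted p = 0.000961). Csf1r, the receptor of Csf1, was itself low, with 0.972 ± 0.323 CPM in mono-culture and at most 41 counts in a library.

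**Figure D4:**
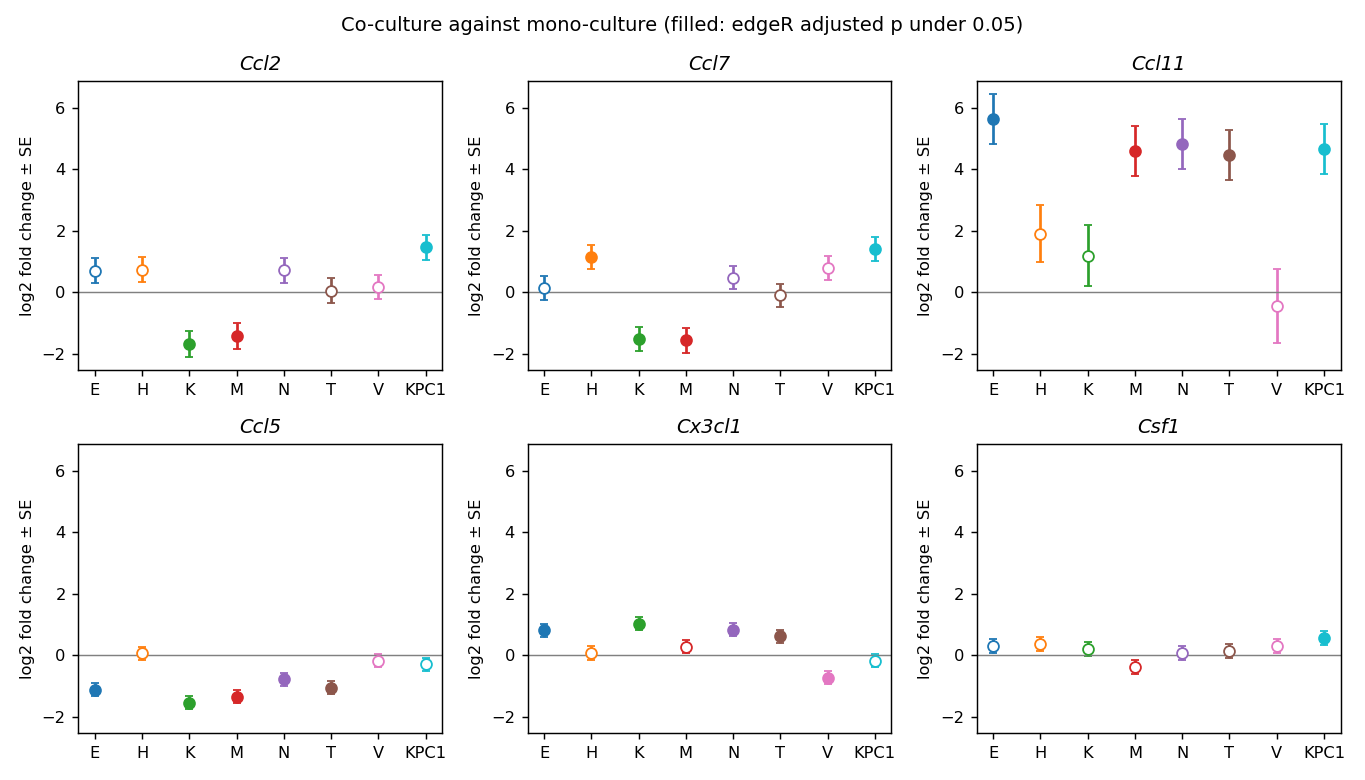
Log2 fold change of each tested member in the 8 co-cultures against mono-culture, with bars of ± 1 SE; filled points passed an edgeR adjusted p of 0.05 and open points did not. Ccl11 reaches 5.64 with clone E, Ccl2 and Ccl7 lie below 0 with clones K and M, and Csf1 stays within 0.55 of 0.

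Counted by co-culture, 4 of the 6 tested members changed with clone K, where 19.1% of all genes were called (10.4% higher, 8.69% lower). Of these, 1 was higher (Cx3cl1) and 3 were lower (Ccl2, Ccl5 and Ccl7). With clone M 4 changed (23% of all genes, 12.2% higher and 10.8% lower), with Ccl11 higher and Ccl2, Ccl5 and Ccl7 lower. With clones E (32% of genes, 16.5% higher and 15.5% lower), N (39%, 19.7% and 19.2%) and T (49.8%, 25% and 24.7%) 3 members changed each, Ccl11 and Cx3cl1 higher and Ccl5 lower. With clone H 1 changed (Ccl7, higher), against 54.2% of genes (27.8% higher, 26.4% lower), and with clone V 1 changed (Cx3cl1, lower), against 58.3% (29.4% higher, 28.9% lower). With KPC1 4 changed, Ccl2, Ccl7, Ccl11 and Csf1, all higher, against 59% of genes (30.5% higher, 28.5% lower). Without KPC1 replicate 1 that count was 2, Ccl7 and Ccl11. Clones H and V called the most genes of the clones and the fewest members. The 8 comparisons share their mono-culture libraries. Over all genes the 36 pairs of groups called between 0.388% (clones H and V) and 59% (mono-culture and KPC1).

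When the 7 clones were averaged and set against mono-culture, 3 of 6 members changed, 2 higher and 1 lower, beside 49.2% of all genes (24.3% higher, 24.9% lower). Ccl11 was higher by 3.17 (SE 0.76, edgeR adjusted p = 0.000906), with 23 of 28 clonal libraries above every mono-culture library, and Ccl5 differed by -0.86 (SE 0.15, adjusted p = 2.2e-05), with 20 of 28 below. Cx3cl1 was higher by 0.41 (SE 0.17, edgeR adjusted p = 0.0402), but 6 of 28 libraries lay below mono-culture, and the call did not pass when any of the 4 mono-culture libraries or clone T replicate 1 was left out (adjusted p of 0.0501 to 0.109). The means of Ccl2 (-0.10, SE 0.30), Ccl7 (-0.09, SE 0.29) and Csf1 (0.14, SE 0.18) did not pass. For Ccl2, 15 of the 28 clonal libraries were above and 12 below the whole mono-culture range, so that mean combined clones lying on opposite sides.

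Among the 7 clones, 5 of 6 members differed by an F-test, where 67.5% of all genes did. The edgeR adjusted p was 1.3e-05 for Ccl2, 1.8e-07 for Ccl5, 1.6e-06 for Ccl7, 1.9e-07 for Ccl11 and 6.7e-07 for Cx3cl1. Csf1 did not pass (edgeR adjusted p = 0.0852), but it did with the replicate number as a block (adjusted p = 0.0261).

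KPC1 against the mean of the 7 clones gave 6 of 6 members, where 41.1% of all genes were called (22.3% higher, 18.8% lower). Ccl2 was higher by 1.57 (SE 0.27, edgeR adjusted p = 4.0e-05), Ccl7 by 1.498 (SE 0.25, adjusted p = 3.6e-05), Ccl11 by 1.49 (SE 0.42, adjusted p = 0.00574), Ccl5 by 0.55 (SE 0.15, adjusted p = 0.00496) and Csf1 by 0.41 (SE 0.17, adjusted p = 0.0485), while Cx3cl1 differed by -0.60 (SE 0.17, adjusted p = 0.00520). Without KPC1 replicate 1 the Ccl2 difference was 0.67 (SE 0.24, edgeR adjusted p = 0.0377), the Ccl7 difference 0.94 (SE 0.26, adjusted p = 0.00839) and the Csf1 difference 0.07 (SE 0.17, adjusted p = 0.786). The Csf1 call failed in 19 of the 32 fits that left out 1 library of these groups. Without KPC1 replicate 4 the Ccl11 difference was 0.78 (SE 0.48, edgeR adjusted p = 0.194). The clones are averaged here on the log2 scale, where clones near the floor lower the mean. As plain means Ccl11 had 4.34 CPM with KPC1 and 3.22 CPM over the clonal libraries. KPC1 lay below clones E and N in Ccl11 and did not differ from clones E, M, N or T (edgeR adjusted p of 0.177 to 0.931). For Ccl5, clones H (26.1 CPM) and V (22.1 CPM) had higher means than KPC1 (20.3 CPM).

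Genes around these ligands were counted in lists, and the counts below stand beside the 49.2% of all genes that were called in the mean clonal comparison (24.3% higher, 24.9% lower). Of 13 other CC chemokines 3 were tested, and in the mean clonal comparison 1 rose and 1 fell. Ccl9, a ligand of Ccr1, was at 13.8 ± 1.85 CPM in mono-culture, its highest co-culture mean was 6.31 CPM (clone E, SD 1.002), and it fell in each of the 8 co-cultures (mean clonal log2 fold change -1.91, SE 0.24, edgeR adjusted p = 1.3e-07). Ccl25, a ligand of Ccr9 studied in thymus and gut, differed by 0.61 (SE 0.18, adjusted p = 0.00473). Ccl12, the neighbor of Ccl8, had at most 2 counts in a library, and the macrophage chemokines Ccl3 and Ccl4 at most 1.

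Of 5 other myeloid growth factors 4 were tested and 3 of these rose in the mean clonal comparison. Il34, the other ligand of Csf1r, had 1.498 ± 0.266 CPM in mono-culture and rose by 1.65 (SE 0.32, edgeR adjusted p = 7.8e-05), and it was called higher in 7 of the 8 co-cultures, the exception being clone K (0.40, SE 0.39). Csf2 (GM-CSF), which drives granulocyte and macrophage growth, had 2 counts in all of mono-culture and 461 in the 28 clonal libraries, a ratio of 32.1 with a 95% counting interval of 8.83 to 266 (edgeR adjusted p = 0.00146). Its level ran from 0.0245 ± 0.0284 CPM with clone K to 3.45 ± 2.38 CPM with KPC1. Kitl, the ligand of Kit, rose by 0.60 (SE 0.14, edgeR adjusted p = 0.000594). Mif did not pass in that mean (0.04, SE 0.12), with 3 co-cultures called higher and 2 lower.

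Most receptors of these ligands had few or no counts in the fibroblasts. Of 12 listed, 2 were tested, and neither Csf1r (-0.20, SE 0.28, edgeR adjusted p = 0.599) nor Ccrl2 (-0.31, SE 0.28, adjusted p = 0.364) passed in the mean clonal comparison. Ccr2 had at most 5 counts in a library, Ccr1 at most 3, Ccr8 at most 1, Cx3cr1 at most 8, and Ccr3 and Ccr6 had 0 throughout. Ccrl2, an atypical receptor that binds chemerin, was lower with clones K (-1.08, SE 0.39, edgeR adjusted p = 0.0494) and M (-1.12, SE 0.40, adjusted p = 0.0423) and higher with clone H (1.03, SE 0.35, adjusted p = 0.0139) and KPC1 (0.95, SE 0.35, adjusted p = 0.0211), the groups in which Ccl7 changed. The KPC1 call of Ccrl2 did not pass without KPC1 replicate 1. Ccrl2 was low, with 0.666 ± 0.200 CPM in mono-culture and at most 45 counts in a library. Csf1r passed with clone T only (-0.96, SE 0.40, edgeR adjusted p = 0.0452).

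Of 8 genes for shedding or cleavage of the ligands 7 were tested, 2 rose and 3 fell in the mean clonal comparison. Rhbdf2 and Rhbdf1, partners of Adam17, rose by 0.76 (SE 0.15) and 0.37 (SE 0.07), while Mmp14 and Mmp2, matrix proteases, differed by -0.97 (SE 0.09) and -0.93 (SE 0.11, edgeR adjusted p for the 4 genes of at most 0.000102). Of 16 inflammatory receptors and adaptors, 8 rose and 3 fell, again beside 49.2% of all genes. The largest increases were those of Il1r1 (0.78, SE 0.10), the interleukin-1 receptor, and Il4ra (0.71, SE 0.14), and the largest decreases those of the innate sensors Tlr3 (-1.08, SE 0.15) and Tlr4 (-0.57, SE 0.08). Of 17 transcription and mRNA decay regulators, 7 rose and 3 fell. Jun (0.90, SE 0.33, edgeR adjusted p = 0.0248) and Cebpb (0.78, SE 0.13) stood highest, and Cebpd was among those that fell (-0.51, SE 0.21, adjusted p = 0.0410).

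For each tested member the 2 genes with the most similar log2 CPM over the 36 libraries were taken from 11689 genes. Ccl5 was nearest to the interferon-stimulated genes Rsad2 (r = 0.91) and Adar (0.90). Ccl7 was nearest to Rnf19b (0.89) and Bhlhe40 (0.88), Cx3cl1 to Sdc4 (0.88) and Sipa1l2 (0.85), and Ccl2 to Lrig1 (0.84) and Ugcg (0.83). Ccl11 was nearest to Neurl1b (0.84) and Cbfa2t3 (0.84), and Csf1 to Foxp1 (0.79) and Itgav (0.78). These are Pearson's r over libraries that share groups and depth, and are given as descriptions of pattern.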

How the data were processed

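Poly(A) RNA of sorted mouse pancreatic fibroblasts was sequenced as strand-specific libraries (200 ng of RNA, 14 amplification cycles, 76-base paired ends). The authors deposited unscaled read counts for 39017 genes in 36 libraries, and RPKM values (counts per unit of gene length and of library size) for 37746 of them. The submitters' processing notes name mm10, STAR, featureCounts and edgeR, without versions. The strand setting of the counting is not given in the sources used here.

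Groups came from the sample labels. Genes were filtered with filterByExpr, scaled by TMM and tested with edgeR 4.0.16 in R 4.3.3 (quasi-likelihood, robust, 1 coefficient per group, Benjamini-Hochberg threshold 0.05). CPM is counts scaled to a common TMM-adjusted library total, with a prior count of 1 for log2 CPM. Totals ranged from 12532122 to 21985538 counts, and floors of 3 counts and 95% intervals (exact, conditional binomial) cover counting error only. Library pairs of a group differed by at least 5.63 chi-square units per degree of freedom, so none was counted as a duplicate.

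The members and gene lists were chosen with earlier results of these data known. Named genes were the 8 members, their receptors, Adam10 and Adam17, for each other list the 2 highest and 2 lowest called mean clonal changes, and for each tested member the 2 genes of highest Pearson's r among genes of at least 2 CPM. Ccl3, Ccl4, Ccl12, Mif, the single cell-type markers and the per-line values of list genes were added after values were seen. Some genes that this rule names are not reported here. Alternatives were DESeq2 1.42.0, limma 3.58.1 (trend) on log2(RPKM + 1) or log2(RPKM + 0.1), RLE or no scaling, testing all genes, a minimum of 10 counts per library, an adjusted p of 0.1, a replicate block, fits to the 8 libraries compared and leaving out each library. In simulated counts for clone E against mono-culture (14439 genes, 200 changed) edgeR recovered 66% of 2-fold and 97% of 4-fold changes with 9 false calls. The measured counts of that comparison gave 4622 called genes. Recovery at the spread of each member was not tested.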

Additional observations from a re-analysis of the deposited data

Results flagged for a closer look

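For Ccl2, Ccl7 and Cx3cl1 some pairs of lines differed from mono-culture in opposite directions. The direct contrast of each pair below passed the edgeR threshold (adjusted p of 6.7e-05 or less). The pairs were picked for these opposite calls in the same fit, so their passing is no separate support. For Ccl2 the log2 difference was 3.16 (SE 0.44) between KPC1 and clone K and 2.89 (SE 0.43) between KPC1 and clone M. Both contain KPC1 replicate 1, and without it clone K differed from KPC1 by -2.26 (SE 0.33, edgeR adjusted p = 3.7e-06) and clone M by -1.995 (SE 0.33, adjusted p = 1.6e-05), while the KPC1 change from mono-culture no longer passed. For Ccl7 the difference was 2.67 between clones H and K, 2.71 between clones H and M, 2.93 between KPC1 and clone K and 2.97 between KPC1 and clone M. For Cx3cl1 clone V was on the other side, with differences of 1.54 from clone E, 1.76 from clone K, 1.56 from clone N and 1.35 from clone T. For the CPM of Ccl20, KPC1 replicate 1 (46 counts) stood outside the other 3 KPC1 libraries by Dixon's test, with a ratio of 0.885, above the critical value for 4 samples. It was the single such library in 60 sets of 4 examined, where about 3 would be found by chance. The sets were the 9 groups of each tested member and the groups of Ccl8 and Ccl20 with a library above 3 counts. For the 6 tested members the distance of KPC1 replicate 1 from the other KPC1 libraries did not pass with 4 libraries.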

How the results depend on the processing

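Across the fits to all 36 libraries, no called change of a member against mono-culture or between KPC1 and the clones turned its direction. The number of members called stayed within 1.5 times the reported number except in 3 comparisons. With clone H it was 2 instead of 1 under the replicate block, DESeq2, limma on log2(RPKM + 0.1), a threshold of 0.1 and the fit to 8 libraries. With clone V it was 2 instead of 1 without the filter (Ccl20 added), at a threshold of 0.1 and in the fit to 8 libraries. With KPC1 it was 2 instead of 4 with at least 10 counts in every library, both limma fits and the fit to 8 libraries, and 2 to 4 when 1 library was left out (2 without KPC1 replicate 1). Csf1 differed in 3 of 36 pairs without the filter and in 3 to 8 with 1 library left out (3 without KPC1 replicate 2, 8 without KPC1 replicate 4), instead of 5. The Csf1 increases with KPC1 and the Cx3cl1 increase in the mean of the clones failed in several settings: for Csf1 against mono-culture adjusted p ran up to 0.187, for Csf1 against the clones up to 0.186 and for Cx3cl1 up to 0.0925 (36-library alternatives). KPC1 against mono-culture for Ccl2 had an adjusted p of 0.0516 and 0.0530 in the limma fits, and Ccl11 for KPC1 against the clones 0.408 and 0.257. The cause was not tested. Values that changed sign did not pass in any setting: without scaling, with limma on log2(RPKM + 1) and on log2(RPKM + 0.1), respectively, clone T had -0.0260, -0.0427 and -0.0433 for Ccl2, and clone H had -0.0353, -0.00328 and -0.00264 for Ccl5 and -0.0194, -0.0340 and -0.0375 for Cx3cl1. With 1 library left out Ccl2 spanned -0.0683 to 0.132 with clone T and -0.0660 to 0.316 with clone V, Ccl5 with clone H -0.0698 to 0.183, Ccl7 with clone T -0.265 to 0.0924 and in the mean of the clones -0.147 to 0.0115, and Cx3cl1 with clone H -0.0360 to 0.150. Ccl11 is dropped by the filter of 10 counts and in some fits to 8 libraries, which gave 45 of 48 values. Replicate numbers did not pair co-cultures with mono-culture: deviations of same-numbered libraries had a median r of -0.03, with 5 of 32 pairs over 0.1, but between co-cultures the median was 0.24 and 27 of 32 libraries correlated best with their own number. Under the replicate block clone H called 8395 genes instead of 7826, Ccl11 passed with clone H (adjusted p = 0.0105), and Csf1 differed among the clones (adjusted p = 0.0261). At this depth 3 counts limit statements on Ccl8, Ccl20 and mono-culture Ccl11.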

Other observations

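Csf1 had its lowest CPM in replicate 4 in 8 of the 8 co-culture lines, from 264 CPM with clone M to 372 CPM with clone T, whereas mono-culture replicate 4 had the highest of its group (437 CPM). This was noticed after the values were seen. Of the 14439 genes tested, 1.32% were lowest in replicate 4 in all 8 lines, and 0.06 to 0.14% were lowest in any other replicate number in all 8. Ccl11 had higher CPM in both of replicates 3 and 4 than in both of replicates 1 and 2 in 6 of 8 lines (clones E, K, M, N and T and KPC1), and 1.56% of genes did so in at least as many lines. The labels do not say what a replicate number stands for, and its part in these values was not tested.

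Of the 17 transcription and mRNA decay regulators, 12 passed with KPC1 against mono-culture, 10 higher and 2 lower, beside 59% of all genes, and 10 passed against the mean of the 7 clones, 9 higher and 1 lower, beside 41.1%. Without KPC1 replicate 1, an alternative chosen after seeing the data, these counts were 9 (beside 54% of all genes) and 5 (beside 29.9%). With clones E, K and M 3 of the 17 passed each, beside 32%, 19.1% and 23% of all genes. With clone V 10 passed, beside 58.3% of all genes, and with clone H 9, beside 54.2%. With clone T 7 passed, beside 49.8%, and with clone N 6, beside 39%. The edgeR threshold was an adjusted p of 0.05.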
